A study of Mus musculus with 26 samples.

Results

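A set of 517 ATRX binding sites in wild-type mouse embryonic fibroblasts (MEFs) lay away from promoters and carried no EZH2. The sites were chosen by 3 criteria from peak lists of CUT&RUN, in which an antibody-tethered nuclease releases the DNA around a chromatin protein for sequencing. A peak of ATRX WT replicate 1 had to overlap a peak of ATRX WT replicate 2 by at least 1 bp. It had to lie further than 2 kb from the annotated transcription start site (TSS) of every gene, with a single TSS per gene. It also had to overlap no peak of either WT EZH2 list. Of 9141 peaks in replicate 1, 3229 were shared with replicate 2, and of these 883 lay at a TSS, 1829 were distal with EZH2 and 517 were distal without EZH2. The 517 are called distal ATRX-only peaks here. Because presence in WT ATRX lists and absence from WT EZH2 lists selected them, their WT ATRX and WT EZH2 values are given as a description and no test was made on them.

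The study compared 3 kinds of MEFs grown in the same calf serum medium: unmodified wild-type (WT) cells, ATRXΔRBR cells, in which CRISPR removed an RNA binding region (RBR) from the endogenous Atrx gene, and cells carrying an Atrx shRNA (labelled ATRX KD). ATRX was profiled in WT and ΔRBR cells, EZH2 and H3K27me3 in all 3, and polyadenylated RNA in all 3, with 2 libraries per group. The ΔRBR cells were picked as stable clones and screened, and the study describes 1 female ΔRBR clone, so effects of the deletion and of the clone cannot be told apart. The study calls the 2 libraries of a group independent biological replicates and the labels do not say what separated them, so every p-value measures only the spread between these libraries.

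ATRX is a SWI/SNF-family chromatin remodeler that works with the histone chaperone DAXX to place histone H3.3 at telomeres, pericentric heterochromatin and other repetitive, often GC-rich, tandem repeats, and it binds RNA. EZH2 is the catalytic subunit of Polycomb repressive complex 2 (PRC2), which methylates histone H3 at lysine 27 to give H3K27me3, a mark of repressed genes. AP-1 is a family of FOS and JUN dimers that binds many distal regulatory elements of fibroblasts.

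Sequences of 3 distal ATRX-only peaks show part of the DNA that made up the set, read on the plus strand of the RefSeq GRCm38 genome (the build of the peak lists). The first is a tandem array with many copies of the AP-1 motif, which was among the 10 peaks of highest fold enrichment and was found in all 4 ATRX lists. The other 2 are single-copy sites found in WT and in neither ΔRBR list. Capitals mark AP-1 motifs (TGANTCA, where N is any base).
chr16:93778363-93778662, Dop1b intron: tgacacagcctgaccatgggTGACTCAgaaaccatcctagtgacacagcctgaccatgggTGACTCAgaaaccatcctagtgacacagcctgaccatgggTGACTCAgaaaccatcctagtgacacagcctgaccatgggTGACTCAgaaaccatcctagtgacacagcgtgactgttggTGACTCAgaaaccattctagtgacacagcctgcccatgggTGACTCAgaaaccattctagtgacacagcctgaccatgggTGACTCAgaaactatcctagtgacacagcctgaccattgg
chr1:72070575-72070874, intergenic: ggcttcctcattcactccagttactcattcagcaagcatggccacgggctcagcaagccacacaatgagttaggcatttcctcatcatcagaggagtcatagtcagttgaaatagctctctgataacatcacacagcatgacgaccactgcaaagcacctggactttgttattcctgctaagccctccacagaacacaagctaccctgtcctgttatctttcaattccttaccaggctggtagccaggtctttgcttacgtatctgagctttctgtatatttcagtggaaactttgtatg
chr5:31963374-31963673, Babam2 intron: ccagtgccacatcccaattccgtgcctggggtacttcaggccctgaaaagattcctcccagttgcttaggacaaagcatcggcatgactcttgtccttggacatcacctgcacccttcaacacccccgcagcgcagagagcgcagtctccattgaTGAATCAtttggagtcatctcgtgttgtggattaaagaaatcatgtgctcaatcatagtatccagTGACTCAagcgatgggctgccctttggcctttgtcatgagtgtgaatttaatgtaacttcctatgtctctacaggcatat

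The Dop1b array had a repeat period of 40 bases, with 7 AP-1 motifs in the 300 bases, and fold enrichments of 6.78 and 7.26 in WT and 4.35 and 7.63 in ΔRBR. The 2 single-copy sites had WT fold enrichments of 4.94 and 4.78 (chr1) and 5.83 and 4.70 (Babam2, a subunit of a BRCA1-associated complex). They held 0 and 2 AP-1 motifs in that order, and no peak of either ΔRBR list overlapped them.

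Fold enrichment over local background, as the peak caller gave it, was modest throughout the set. The median was 4.34 (range 1.32 to 10.9) in WT replicate 1 and 4.31 (1.79 to 11.0) in replicate 2. The median width was 369 bp and the widths ran from 141 to 45921 bp, with 46 peaks over 1000 bp and 2 over 5000 bp. The thresholds fell within a continuum of positions. The 2 peaks nearest to a TSS lay 2014 bp from that of Gm33838 and 2033 bp from that of Ftl1-ps2, while peaks without EZH2 at 1987 bp (Gm17655) and 1968 bp (Golt1b) fell outside the set. The 2 nearest to a WT EZH2 peak were 2 and 10 bp from it, while the distal peaks with the smallest EZH2 overlap shared 1 and 3 bp and were left out. In all, 42 of the 517 had a WT EZH2 peak within 1000 bp and 174 within 10000 bp.

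The highest fold enrichment, 10.9 in WT replicate 1 and 11.0 in replicate 2, belonged to a peak of 5000 bp on the unplaced sequence Un_GL456370. It kept values of 8.33 and 10.0 in ΔRBR. A peak at chrY:4073670-4073907 followed at 7.65 and 5.11, and was listed in ΔRBR replicate 2 (4.32) and not in replicate 1. The other 8 of the 10 highest values in WT replicate 1 ran from 6.73 to 7.36 and included peaks in introns of Commd10, Adam9 and Dop1b and in the untranslated region of Vmn1r60, a vomeronasal receptor gene. Of these 10 peaks, 5 were in both ΔRBR lists, 4 in replicate 2 only and 1, at chr19:44265414-44265675, in neither. The widest peak, 45921 bp on Un_JH584304, was also among those of lowest fold enrichment (1.503 and 1.875 in WT and 1.62 and 1.51 in ΔRBR).

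The set was mostly intergenic and intronic. Of 517 peaks, 281 (54.4%, 95% Wilson interval 50.04 to 58.6) overlapped no annotated gene, 207 (40.04%) lay in introns and 29 (5.61%) touched an exon. The genome outside the TSS windows was 56.2% intergenic, 40.3% intronic and 3.57% exonic. Distal peaks with EZH2 were intergenic in 47.2% of cases. The exonic peaks comprised 9 in coding sequence, among them Col1a2 (a chain of type I collagen), Col7a1, Utrn and Recql, 8 in untranslated regions, among them Klf13 and Apbb2, and 12 in noncoding exons such as Lncpint. The median distance to the nearest TSS was 21576 bp. With only protein-coding genes considered, 62.5% were intergenic.

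Members in genes numbered 236, in 222 host genes, of which 174 were protein coding and 24 held more than 1 peak. The protein-coding hosts had a median length of 157398 bp, against 17318 bp for all annotated protein-coding genes. The rule itself favours long genes, since a site had to lie over 2 kb from the TSS of every gene and a longer gene offers more room. Lpp, which encodes a focal adhesion protein, and CAAA01118383.1 held 4 peaks each, and Pvt1, a long noncoding RNA gene next to Myc, Gm31718, Ltbp1, which encodes a TGF-beta binding matrix protein, and Atxn1 held 3 each. Peaks also gathered in runs. A total of 71 of the 517 fell into 19 runs of at least 3 peaks with gaps under 50 kb, the largest being 7 peaks on 4_GL456216_random, 5 on Un_GL456370 and 5 at chrY:4073670-4084162. A run of 4 spanned Slco1a5, Iapp, Pyroxd1 and Recql at chr6:142276067-142367797, and all 4 of its peaks were in ΔRBR replicate 2 and 3 in replicate 1.

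On sex chromosomes and unplaced sequences, a large share of the shared ATRX peaks belonged to the set. Chromosome X carried 35 of the 517, which was 67.3% of its 52 shared ATRX peaks, chromosome Y carried 9 of 10 and unplaced or unlocalized sequences 28 of 32, whereas the set made up 14.2% of the shared peaks of chromosome 10. Per Mb, the set had 0.205 peaks on X and 0.0981 on Y, against 0.179 over the assembled chromosomes, while X had 0.304 shared ATRX peaks per Mb against 1.17 over the assembled chromosomes. The cells were described as female, and 8 of the 9 windows on Y had 32-base words that occurred more than once in the genome (median copy number 11.0), and where their reads came from was not tested.

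On X, 25 of the 35 peaks lay in 1 interval, chrX:123037512-125571416. All 25 were intergenic. Their 300-base windows had a median GC content of 25.3% (18.3 to 35.0), were soft-masked as repeats over a median 92.7% of their length, had a median copy number of 8 (2 to 16) and held no AP-1 motif. Within the interval, 5 runs of 3 or 4 peaks began 220941 to 230312 bp apart. The 4 ATRX lists did not share the interval evenly. It held 34 and 29 peaks in WT replicates 1 and 2, 33 in ΔRBR replicate 2 and 1 in ΔRBR replicate 1. Chromosome X as a whole held 112 peaks (1.79% of the list) in ΔRBR replicate 1 and 106 (2.202%) in replicate 2, against 171 (1.87%) and 90 (1.88%) in WT. Of the 25 distal ATRX-only peaks of the interval, 24 were therefore in ΔRBR replicate 2 and 0 in replicate 1, and of the 10 elsewhere on X, 9 and 3. The 2 ΔRBR libraries thus disagreed about this interval.

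**Figure D1:**
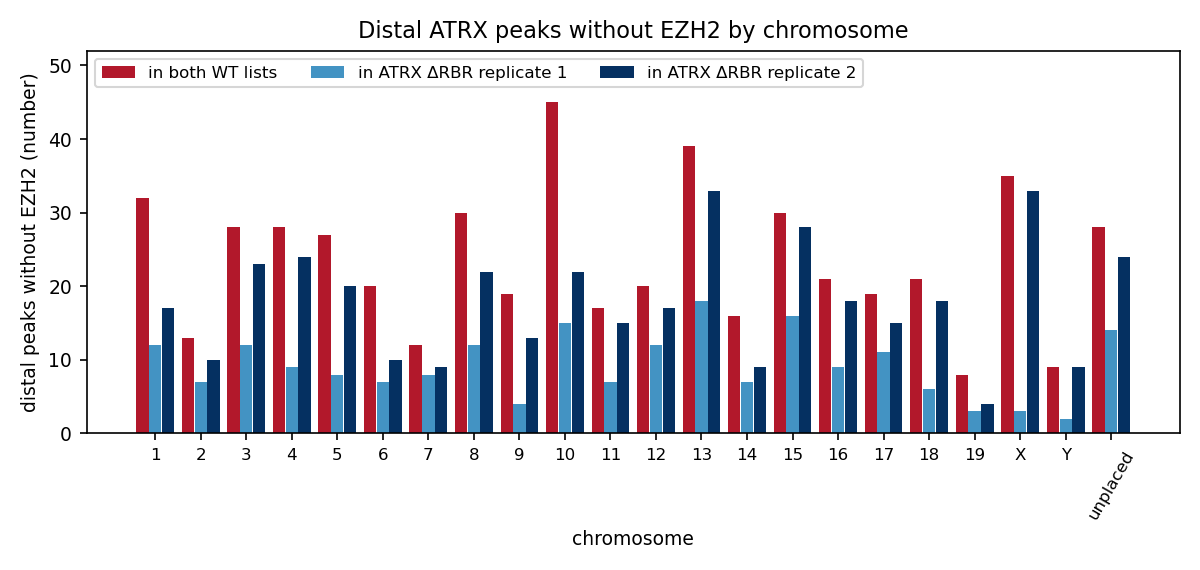
Number of distal ATRX peaks without EZH2 (vertical axis) on each chromosome and on unplaced sequences (horizontal axis), with bars for all 517 peaks of both WT lists and for those found in ATRX ΔRBR replicate 1 and replicate 2. Of the 35 peaks on X, 3 were in ΔRBR replicate 1 and 33 in replicate 2, and chromosome 10 held the most peaks, 45.

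The first question was whether ATRX remained at these sites when its RNA binding region was deleted. The rule required a peak in both WT ATRX lists, so presence could only fall from there. ATRX ΔRBR replicate 1 listed a peak at 202 of the 517 (39.1%, Wilson interval 35.0 to 43.3) and replicate 2 at 393 (76.0%, 72.2 to 79.5), a mean of 57.5% ± 26.1 (SD, n = 2). Such intervals cover counting error only. The 2 libraries differed by more than any contrast between classes of peaks. The corresponding means were 67.6% ± 12.8 for distal peaks with EZH2 and 64.9% ± 6.73 for peaks at a TSS. The lists were of unequal length, with 6274 ATRX peaks in ΔRBR replicate 1 and 4813 in replicate 2, so the longer list held fewer of the distal ATRX-only peaks. The study states a range of read depth over all samples and not the depth of each library, the use of a control library in the peak calls was not given in the sources used here, and absence from a list means only that no peak passed the caller's threshold.

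Both ΔRBR lists held 164 of the peaks (31.7%), replicate 1 alone 38 (7.35%), replicate 2 alone 229 (44.3%), and neither 86 (16.6%, Wilson interval 13.7 to 20.1). Of all 3229 shared peaks, 12.8% were in neither list. Distal peaks with EZH2 were in neither list in 11.4% of cases and peaks at a TSS in 13.5%. Absence from replicate 1 was 60.9% in the set against 41.5% of all shared peaks, while absence from replicate 2 was 23.98% against 27.9%. The set therefore stood above the background in one library and below it in the other.

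**Figure D2:**
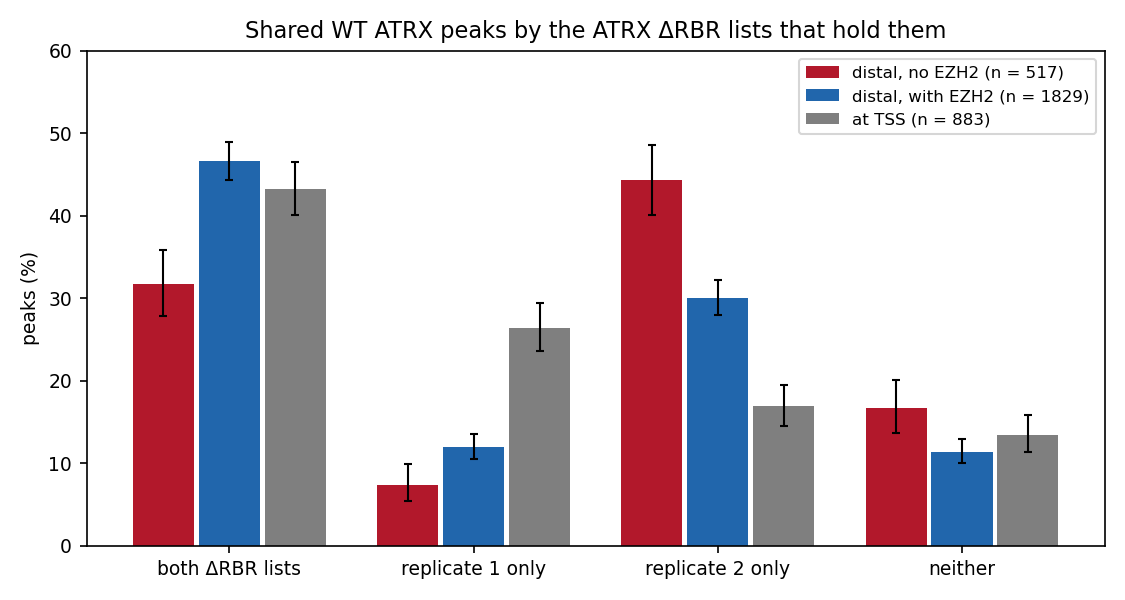
Share of shared WT ATRX peaks (percent, vertical axis) by the ATRX ΔRBR lists that held them, for distal peaks without EZH2, distal peaks with EZH2 and peaks at a TSS, with 95% Wilson intervals as error bars. Of the distal peaks without EZH2, 44.3% were in replicate 2 only and 16.6% in neither list.

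Peaks with weaker support in WT were absent more often. Ranked by the smaller of the 2 WT −log10 q values, with tiers of all shared peaks divided at 1.73 and 2.34, the share of distal ATRX-only peaks in neither ΔRBR list was 22.6% of 212 in the lowest tier, 17.98% of 178 in the middle and 4.72% of 127 in the highest. All shared peaks gave 20.5%, 12.1% and 5.76%. Replicate 1 held 31.1%, 36.0% and 56.7% of the set in these tiers, and replicate 2 held 67.5%, 75.3% and 91.3%. The order over tiers was the same in both libraries.

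The share found in neither list varied among chromosomes. Chromosome 10, with the most peaks (45, or 0.344 per Mb against 0.179 over the assembled chromosomes), had 20 in neither list (44.4%), of which 10 were intronic, against 66 of 472 elsewhere (14.0%). Chromosome 6 had 8 of 20 in neither list, chromosome 1 had 9 of 32, chromosome 9 had 5 of 19 and chromosome 14 had 4 of 16. Distal peaks with EZH2 on chromosome 10 were in neither list in 25.4% of 193 cases, against 9.72% on other chromosomes, and peaks at a TSS in 15.2% of 79, against 13.3%. On chromosomes 4, 7 and Y, all of the 28, 12 and 9 peaks were in at least 1 ΔRBR list. The part of chromosome copy number in these shares was not tested.

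Among the peaks in neither ΔRBR list, the 10 with the strongest support in both WT libraries included 2 on Un_GL456396, those in Babam2, Gm5427, Eya4 (a transcriptional coactivator and phosphatase), Hk2 (hexokinase) and Ube2cbp, and intergenic ones at chr1:72070603-72070847 and chr19:61330608-61331531. Their fold enrichments ran from 2.15 to 6.73 in WT replicate 1 and from 2.62 to 5.17 in replicate 2. The Hk2 peak (chr6:82756063-82756540) had values of 6.73 and 4.42, and the Eya4 peak (chr10:23203331-23204273) 4.39 and 5.08. The Eya4 region carried an EZH2 peak in ΔRBR replicate 1. The Un_GL456396 region at 11869 to 12606, at 2.15 and 2.62, was listed in both EZH2 and both H3K27me3 ATRX KD lists.

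The second question was whether EZH2 or H3K27me3 appeared at the sites in the altered cells. The rule barred WT EZH2 peaks, so EZH2 could only be gained. The WT EZH2 lists also differed from each other. Of the shared distal ATRX peaks, 692 had no peak in EZH2 WT replicate 1, 904 had none in replicate 2 and 517 had none in either. EZH2 ΔRBR replicate 1 listed a peak at 80 of the 517 (15.5%, Wilson interval 12.6 to 18.8) and replicate 2 at 1 (0.193%). The 2 libraries thus did not show the same thing. The lists held 22418 and 11408 peaks. The libraries labelled ATRX KD listed EZH2 at 50 and 52 of the sites (9.86% ± 0.274 SD, n = 2). Over all shared peaks the mean EZH2 shares were 52.1% in ΔRBR and 21.4% in ATRX KD, and over distal peaks with EZH2 in WT they were 53.03% and 9.05%. The difference of ΔRBR and ATRX KD means was smaller than the spread between the ΔRBR libraries (exact two-sided permutation test, p = 1.0, where the smallest possible p is 0.333). In ΔRBR replicate 1, EZH2 was listed at 50 of the 202 sites that kept an ATRX peak in ATRX ΔRBR replicate 1 (24.8%) and at 30 of the 315 that did not (9.52%). Against ATRX ΔRBR replicate 2 the shares were 15.3% and 16.1%, so the relation was not seen with the other library.

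H3K27me3 was rare at the sites, as at all shared ATRX peaks. It was listed at 1 of 517 in each WT library, at 4 and 3 in ΔRBR (0.677% ± 0.137) and at 32 and 33 in the libraries labelled ATRX KD (6.29% ± 0.137). On assembled chromosomes alone, the mean shares were 0.204% in WT, 0.204% in ΔRBR and 5.32% in ATRX KD. Over all shared peaks the mean shares were 0.418%, 0.372% and 1.84%. Neither contrast with WT could pass a test with 2 libraries a group (p = 0.333 for both, the smallest that the exact two-sided permutation test allows). The WT lists covered 3.77% and 4.34% of the genome and the ΔRBR lists 5.41% and 4.65%, whereas the ATRX KD lists covered 0.232% and 0.204%. The ATRX KD lists stood apart in another way. Their largest −log10 q values were 170 and 173 for H3K27me3 and 179 and 178 for EZH2, while those of the other 12 lists ran from 17.2 to 36.8.

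**Figure D3:**
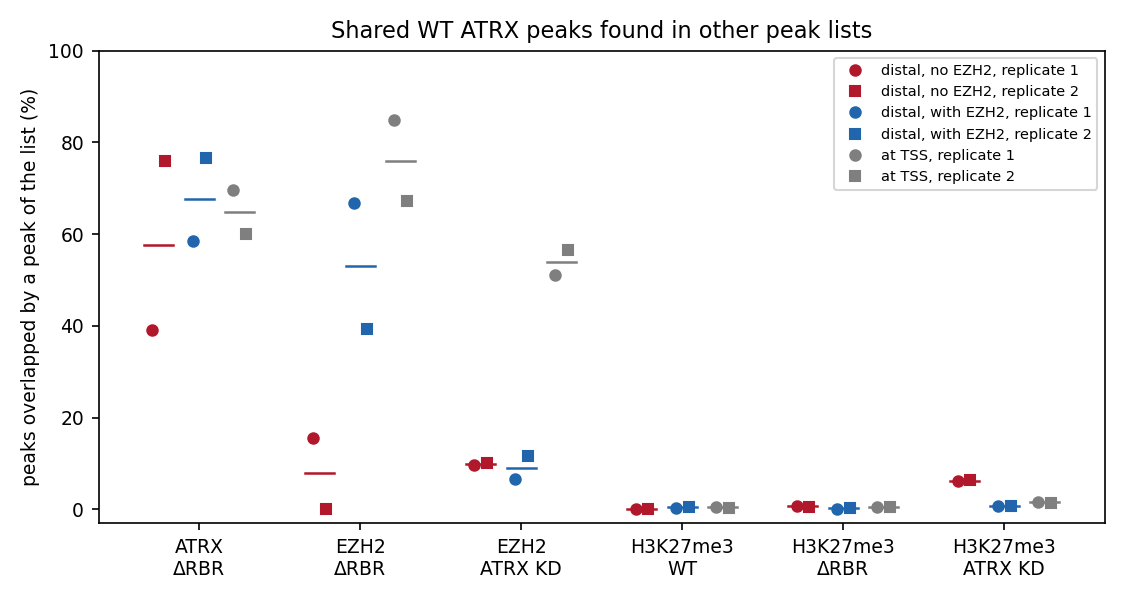
Percentage of shared WT ATRX peaks that overlapped a peak of each list (vertical axis), for 3 classes of peaks, with a circle for replicate 1, a square for replicate 2 and a line at their mean. At distal peaks without EZH2, H3K27me3 was listed in at most 0.774% in WT and ΔRBR, and the 2 ATRX ΔRBR libraries stood at 39.1% and 76.0%.

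Most of the overlap with ATRX KD lists came from few sites. Of the 517, 462 were in none of the 4 ATRX KD lists and 30 were in all 4, with either antibody. These 30 had a median WT fold enrichment of 2.57 (1.32 to 5.53) and included 22 of the 30 peaks of lowest fold enrichment in the set and 0 of the 30 highest. Of them, 24 were in ATRX ΔRBR replicate 1 and 26 in replicate 2, 21 were intergenic, 9 intronic and 5 on unplaced sequences, and none of the 25 with a genome sequence held an AP-1 motif. Without the 30, EZH2 was listed at 4.31% of sites in ATRX KD and H3K27me3 at 0.513%, and ATRX was present at 56.0% in ΔRBR on average and absent from both lists at 17.2%. Whether these sites give signal with any antibody was not tested, since the IgG libraries were not analysed here.

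Sequence features were computed on the 300 bases around the midpoint of the 489 peaks on assembled chromosomes and on 441234 windows of the same length spaced over the genome. The mean GC content was 43.2% ± 7.18 (SD over peaks) against 47.8% for distal peaks with EZH2, 55.9% at TSS and 41.7% in the genome. The ratio of observed to expected CpG was 0.204, against 0.240, 0.585 and 0.176. The distal ATRX-only windows were thus closer to the genome in composition than either other class.

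The AP-1 motif TGANTCA, which reads the same on both strands, differed most from the genome in share, in percentage points, among the motifs searched. It occurred in 238 of 489 windows (48.7%, Wilson interval 44.3 to 53.1), in 58.0% of distal peaks with EZH2, in 21.3% of peaks at a TSS and in 8.87% of genome windows. In the windows that held it, the nearest motif lay a median of 51.0 bases from the midpoint, and in 49.6% within 50 bases. On autosomes 235 of 445 windows (52.8%) held it, on X 3 of 35 and on Y 0 of 9. From the lowest to the highest of 3 groups of 163 peaks ranked by WT fold enrichment, the share was 39.9%, 49.7% and 56.4%, and was 53.4% in introns and 44.0% between genes.

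Windows with AP-1 were in ATRX ΔRBR replicates 1 and 2 in 37.0% and 73.9% of cases and in neither list in 18.1%, and windows without it in 39.8%, 76.9% and 15.9%. On autosomes alone, which leaves out the X interval, these shares were 37.4%, 74.04% and 17.9% with the motif and 45.2%, 72.9% and 18.6% without it, so replicate 1 held fewer of the sites with the motif and replicate 2 about as many. EZH2 in ΔRBR replicate 1 was listed at 15.7% of autosomal windows with the motif and at 18.1% of those without it. Over all assembled chromosomes these shares were 15.5% and 15.9%. A match says only that the letters are present, and no factor binding was measured.

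Other motifs were searched on both strands by their letters, none of which contains another. TGTGGT (RUNX) was found in 33.7% of windows against 19.9% of genome windows, GGAATG (TEAD) in 21.3% against 15.9%, and CCAAT (NF-Y) in 32.5% against 40.8%. GGGCGG (SP1) was found in 3.07% against 2.78%, in contrast to 49.0% of peaks at a TSS. CACGTG (E-box) was in 2.66% against 2.89%, AAGATGGC (YY1) in 1.64% against 2.69%, CCGGAAG (ETS) in 0.613% against 0.846% and TGACGTCA (CREB) in 0.204% against 0.154%. The CTCF motif was in 3 windows (0.613% against 0.143%) and that of NRF1 in none (0.0175% of genome windows).

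Repeats were of several kinds. No repeat annotation was used, and soft-masking in the genome, uninterrupted simple repeats of units of 1 to 6 bases over at least 24 bases, and longer tandem repeats with a period of 7 to 60 bases over at least 60 bases were read instead. Soft-masked bases made up 21.7% of the windows, against 10.6% for distal peaks with EZH2, 9.17% at TSS and 36.3% of the genome, and 15.95% of windows were over 50% masked, against 2.90%, 3.30% and 29.3%. Simple repeats were in 36 windows (7.36%, against 7.09% in the genome) and longer tandem repeats in 39 (7.98%, against 0.602% of distal peaks with EZH2, 1.25% at TSS and 2.50% of genome windows). These kinds overlapped. Arrays of the telomere repeat, a 6-base unit, could also match at a period of 12 and were then counted in both, as at chrX:170758163-170758495. Runs of GGG that could form a G-quadruplex, 4 runs 1 to 7 bases apart on either strand, were in 24 windows (4.91%), close to the 5.02% of the genome. In 68 windows (13.9%) the median copy number of 32-base words was over 1, against 1.37% for distal peaks with EZH2, 5.11% at TSS and 16.7% of 4413 genome windows.

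Multicopy windows differed in the deletion lists. Among 421 single-copy windows, 18.5% were in neither ΔRBR list, 39.0% in replicate 1 and 73.2% in replicate 2, and among the 68 with more copies these were 7.35%, 35.3% and 89.7%. On autosomes alone, where the X interval plays no part, the 31 multicopy windows were in replicate 1 in 67.7% of cases and in replicate 2 in 80.6%, against 39.1% and 72.9% of 414 single-copy windows, and were in neither list in 12.9% against 18.6%. Of these multicopy windows 9 of 31 were in all 4 ATRX KD lists, against 14 of 414 single-copy ones. How reads with several matches were placed by the aligner bears on these counts and was not tested.

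**Figure D4:**
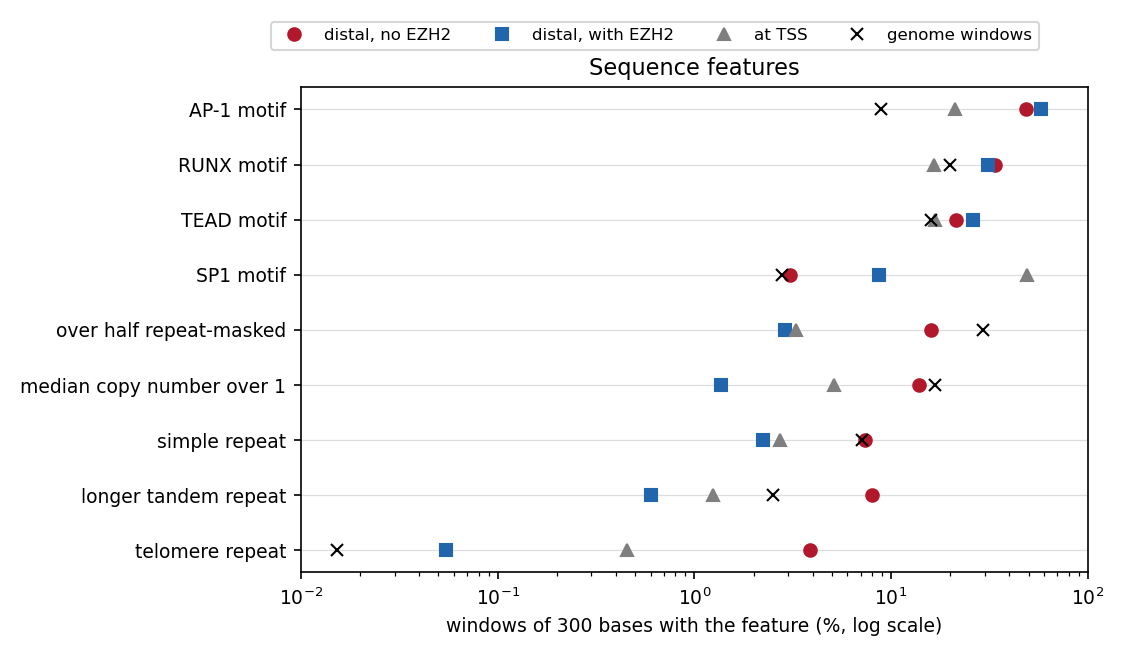
Percentage of windows of 300 bases that held each feature (horizontal axis, log scale), for distal peaks without EZH2, distal peaks with EZH2, peaks at a TSS and genome windows. The AP-1 motif was in 48.7% of the distal peaks without EZH2 against 8.87% of genome windows, and the telomere repeat in 3.89% against 0.0152%.

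Telomere repeats were a small group within the set. At least 2 units of the vertebrate telomere repeat in a row, on either strand, stood in 19 of the 489 windows (3.89%), in 1 of 1828 distal peaks with EZH2 (0.0547%), in 4 of 880 at TSS (0.455%) and in 67 of 441234 genome windows (0.0152%). Some stood inside introns, among them those of Dop1b, Hs6st3, Pde7b and Ppp1r9a. Of the 19, 6 lay within 1 kb of the 100 kb unsequenced block that ends an assembled chromosome. A total of 9 of the 489 peaks lay there, against 1 of 2708 other shared peaks. The median WT fold enrichment of the 19 was 4.25.

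Presence of telomere repeats in the ΔRBR lists went with presence in the ATRX KD lists. Of the 19, 14 were in each ΔRBR list, 12 in both and 3 in neither. Without telomere repeats, 470 windows were in replicate 1 in 37.0% of cases and in replicate 2 in 75.5%. Of the 19, 10 were among the sites in all 4 ATRX KD lists, so for these the signal with other antibodies stands beside the ATRX values. Each of these 10 was in ΔRBR replicate 1, and the 3 windows in neither ΔRBR list were not among them. Outside the 10, ΔRBR replicate 1 held only the windows on X and those in Hs6st3 and Ppp1r9a. None of the 19 carried an EZH2 peak in ΔRBR replicate 1.

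The third question was whether the genes that host the sites changed in RNA. The RNA libraries held 13320635 and 11856636 expected counts in WT, 9574174 and 13694802 in ΔRBR and 9051693 and 21723647 in ATRX KD. Fewer cells of a type and less RNA per cell cannot be told apart in such bulk samples. Fibroblast markers were abundant, with summed levels of 13980 and 11705 TPM (an abundance scaled by transcript length and library size) in WT, 21604 and 23616 in ΔRBR and 19068 and 19316 in ATRX KD. S100a4 was the most abundant in ΔRBR and ATRX KD (4166 and 4164 TPM in WT, 9697 and 11816 in ΔRBR), and Thy1 and Lum were at or near 0 throughout. Of 12 fibroblast markers tested, 1 passed as higher (S100a4) and 1 as lower (Col3a1) in ΔRBR. In ATRX KD 4 passed as higher and 3 as lower. Col3a1 had 28.1 and 32.2 TPM in WT, 20.3 and 15.8 in ΔRBR and 0.36 and 0.75 in ATRX KD, and Dcn was at 0 in ATRX KD. Epithelial markers summed to at most 0.91 TPM and blood markers, mostly Cd68, to at most 12.1. Endothelial markers summed to 1.41 and 1.90 TPM in WT, 5.38 and 3.16 in ΔRBR, where 1 of 2 tested (Pecam1) passed as higher, and 0.29 and 0.05 in ATRX KD, where Pecam1 passed as lower. Muscle markers summed to 0.64 and 0.68 TPM in WT and 2.38 and 1.76 in ΔRBR, where the 1 tested (Des) passed as higher. Their part in the host gene results was not tested. Sox2, a neural and stem cell factor, stood at 43.9 and 37.1 TPM in WT, 18.7 and 17.5 in ΔRBR and 1.10 and 0.55 in ATRX KD, and its part in the results was not tested.

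Atrx itself had 233 and 141 TPM in WT, 175 and 124 in ΔRBR and 331 and 512 in ATRX KD. The ΔRBR values overlapped those of WT (log2 fold change -0.63 ± 0.22 SE, edgeR quasi-likelihood adjusted p = 0.140), and the level does not check the deletion. The fitted change in ATRX KD was -0.15 ± 0.21 (adjusted p = 0.604), and its sign differed from that of the TPM values, so the RNA of the libraries labelled ATRX KD did not show a knockdown. The study describes ATRX as depleted in its ATRX KD lines and reports lower DAXX protein there, by western blot. Among 27 tested genes of ATRX-linked chromatin factors, 1 passed the test in ΔRBR (6.88% of all genes tested passed). It was Ezh1, the paralog of Ezh2, with 12.3 and 16.5 TPM in WT and 35.2 and 26.5 in ΔRBR (log2 fold change 1.03 ± 0.19, adjusted p = 0.0161). In ATRX KD, 7 were higher and 4 lower, where 15.2% and 17.8% of all genes tested were. Daxx (37.4 and 33.3 TPM in WT, 29.3 and 34.5 in ΔRBR) and Ezh2 (204 and 177, 246 and 206) did not pass the test in ΔRBR.

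In ΔRBR against WT, 169 of the 222 host genes were tested and 11 passed an adjusted p of 0.05 (6.51%), against 6.88% of 16287 genes. Of the hosts, 5 were higher (2.96%, against 2.79% of all genes) and 6 lower (3.55%, against 4.08%), and 11 of 154 protein-coding hosts passed (7.14%, against 8.38%). The count was near the background in this fit, whereas with no filter on low counts 14.6% of hosts passed against 7.45% of all genes, and with same-numbered libraries crossed as blocks 48.5% against 34.1%. The median log2 fold change of the tested hosts was 0.09, against -0.02 over all genes, and it turned to -0.040 without ΔRBR replicate 1. Of 30 tested hosts of a site in neither ΔRBR list, 1 passed, and of 53 hosts of a site in both lists, 6.

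Among the hosts that passed, the largest increase was in Scara5, a ferritin receptor gene, with 2.33 and 2.80 TPM in WT and 25.2 and 21.5 in ΔRBR (log2 fold change 3.12 ± 0.20, edgeR adjusted p = 0.000336). Both ΔRBR values lay far above both WT values, and the intronic site at chr14:65691083-65691594 was in both ΔRBR lists. Sybu, which encodes a kinesin adaptor, rose from 4.04 and 4.66 to 22.9 and 23.1 TPM (log2 fold change 2.33), and Mylk, the smooth muscle myosin light chain kinase, from 5.10 and 5.27 to 23.9 and 18.4 (1.95). Hjurp, the CENP-A chaperone, had 87.4 and 169 TPM in WT and 310 and 195 in ΔRBR (0.87 ± 0.21, adjusted p = 0.0462), and Matn2, a matrilin, 49.99 and 57.95 and then 100.35 and 91.2 (0.78 ± 0.16, adjusted p = 0.0279). For these 5 genes the 2 groups did not overlap, but the test chose the genes on these same libraries, so this only describes them. Calls for Hjurp and Matn2 were lost in 3 and 5 of 12 alternative settings with a test.

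Zfp704, a zinc finger gene, fell from 5.32 and 5.69 TPM to 1.80 and 1.83 (log2 fold change -2.39 ± 0.21, adjusted p = 0.000747). Adam12, a metalloprotease gene, fell from 3.11 and 7.94 to 2.19 and 1.14 (-1.51 ± 0.30, adjusted p = 0.0225). Fam13c, at 20.9 and 28.4 TPM in WT and 14.2 and 13.4 in ΔRBR (-0.87 ± 0.19, adjusted p = 0.0345), was the 1 called host of a site in neither ΔRBR list, at chr10:70495470-70495891, and its call was lost in 4 of 12 settings. Samd12 had 26 and 39 expected counts in WT and 0 and 1 in ΔRBR. Ppp1r9a and Mef2c were listed at 0 in both ΔRBR libraries, with 12 and 14 and with 12 and 6 expected counts in WT, and these 3 have no fold given because the ΔRBR counts were so few. All 3 passed the filter on counts through their WT libraries. The call for Mef2c was lost with DESeq2 and without ΔRBR replicate 2, and the gene did not pass the filter on counts without WT replicate 1. With at least 10 counts required in every library, none of the 3 was tested. In ΔRBR the 6 genes were below both WT values, but the test chose them as lower on these same libraries, so this only describes them.

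**Figure D5:**
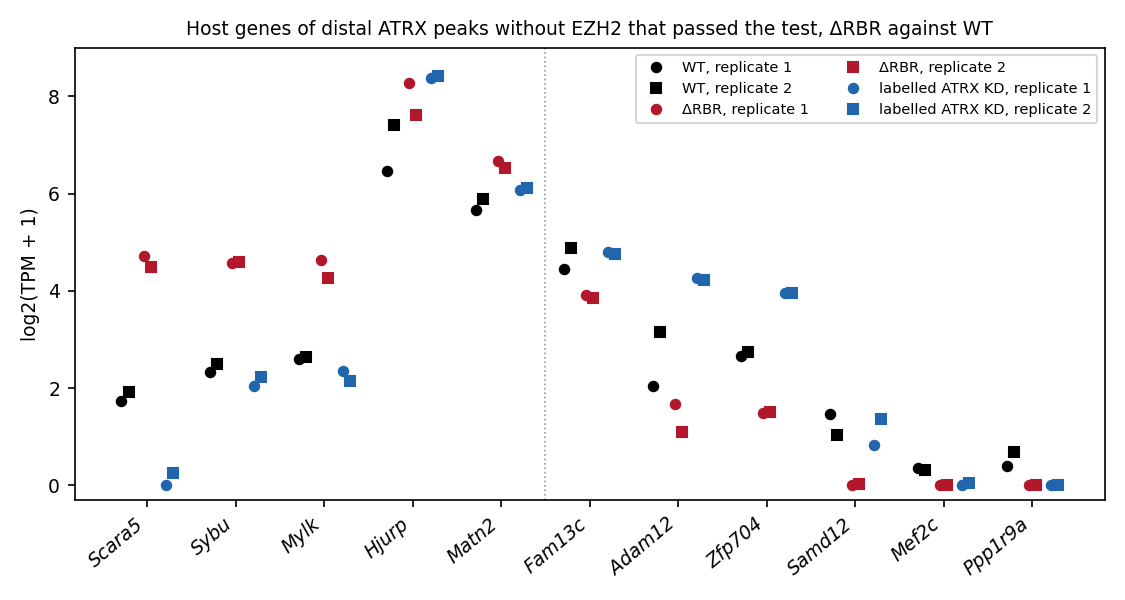
Levels of the 11 host genes that passed the test in ΔRBR against WT, as log2(TPM + 1) (vertical axis), with 2 libraries each for WT, ΔRBR and the cells labelled ATRX KD. To the left of the dotted line are the 5 that were higher, led by Scara5 (2.33 and 2.80 TPM in WT, 25.2 and 21.5 in ΔRBR), and to the right the 6 that were lower.

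In the libraries labelled ATRX KD against the same WT libraries, 85 of 165 tested hosts passed (51.5%), 55 higher and 30 lower, against 33.1% of 16748 genes (15.2% higher and 17.8% lower). Of 152 protein-coding hosts 79 passed (51.97%), against 39.5% of protein-coding genes. The hosts were longer than other genes, as given above, and how length bears on this share was not tested. The median log2 fold change of the hosts was 0.10. The 2 comparisons share their WT libraries, so their values are set side by side. Scara5 was lower in ATRX KD (0 and 0.19 TPM), while Zfp704 (14.5 and 14.6 TPM, log2 fold change 0.91) and Adam12 (18.2 and 17.6 TPM, 1.56) were higher. Mylk was also lower in ATRX KD (4.11 and 3.45 TPM, log2 fold change -0.64, edgeR adjusted p = 0.0258). Hjurp was higher in both (1.02 in ATRX KD). Ppp1r9a (0 TPM in both ATRX KD libraries) and Mef2c (0 and 0.03 TPM) were at or near 0 in ATRX KD too. Both genes passed the filter on counts through the shared WT libraries, so the 2 comparisons are not separate results for them. Sybu, Matn2, Fam13c and Samd12 did not pass the edgeR test in ATRX KD (adjusted p = 0.0997, 0.527, 0.632 and 0.488). Of the hosts with most sites, Lpp had 20.5 and 18.01 TPM in WT and 34.7 and 20.3 in ΔRBR, and did not pass in ΔRBR (adjusted p = 0.377). It was higher in ATRX KD (36.6 and 35.7 TPM, log2 fold change 0.69 ± 0.14, edgeR adjusted p = 0.0101), and Pvt1 was lower (41.3 and 40.2 TPM in WT, 21.8 and 17.4 in ATRX KD, -1.33 ± 0.18, edgeR adjusted p = 0.00221).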

How the data were processed

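CUT&RUN peak lists were deposited per library by the authors, who used Bowtie2 for alignment to mm10 (the GRCm38 build) and MACS2, in its broad mode and 1 sample at a time, for peaks. The deposited columns used were fold enrichment (a ratio) and the −log10 q-value. RNA-Seq reads were aligned by the authors with STAR, and the deposited tables hold RSEM expected counts and TPM per gene. Whether IgG served as control in peak calling is not given in the sources used here.

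TSS and genes were taken from GENCODE M21, with a single TSS per gene. With the TSS of every transcript in its place, the set held 494 peaks. Sequence was taken from the RefSeq genome, and the 28 peaks on 9 unplaced or unlocalized sequences were not analysed here for sequence. Expected counts were rounded and tested with edgeR 4.0.16 (TMM, quasi-likelihood, genes with over 10 counts in total, Benjamini-Hochberg adjustment over all genes tested) in R 4.3.3, with DESeq2 1.42.0 as an alternative. Of the 222 host genes, 169 passed that filter in ΔRBR against WT and 165 in ATRX KD against WT. Peaks were compared over the 2 libraries of each group by exact permutation tests. Overlap means at least 1 bp.

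Peaks named were the 10 of highest fold enrichment in WT replicate 1, the 10 in neither ΔRBR list with the highest smaller WT −log10 q, the largest runs and the widest, of which 1 peak and some sequences are not reported here. Genes named were the hosts with most peaks, called hosts, hosts of named peaks and a list of ATRX-linked chromatin genes. The peaks, lists and tests were chosen with earlier results of these data known. The statistical scripts were tested on simulated data.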

Additional observations from a re-analysis of the deposited data

How the results depend on the processing

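The number of peaks moved most when a WT library was left out. A q-value of 0.01 or less in every list left 289 peaks, of which 23.2% were in neither ΔRBR list, 14.4% had EZH2 and 9.34% H3K27me3 in ATRX KD, 54.2% an AP-1 motif and 6.27% a telomere repeat. Leaving out 1 library in turn gave 692 to 2456 peaks (2456 without ATRX WT replicate 2, 904 without EZH2 WT replicate 1), 15.2% to 69.0% in neither ΔRBR list (23.98% without ATRX ΔRBR replicate 1, 60.9% without replicate 2, 69.0% without ATRX WT replicate 2), 19.6% to 76.0% present in ΔRBR, and 2.97% to 10.1% with EZH2 and 1.77% to 6.38% with H3K27me3 in ATRX KD. Requiring 50% of the peak to be shared gave 6.78% with EZH2 in ATRX KD and 0% and 0.181% with H3K27me3 in WT and ΔRBR. Barring peaks of all 6 EZH2 lists gave 0%, 0.130% and 0% with H3K27me3 in WT, ΔRBR and ATRX KD. Removing the sites in all 4 ATRX KD lists, added after seeing the data, gave 4.31% with EZH2 and 0.513% with H3K27me3 in ATRX KD. H3K27me3 was 0.204% in both WT and ΔRBR on assembled chromosomes and 0.225% in both on autosomes, the latter added after seeing the data. AP-1 was in 54.8% of peaks searched as listed, and 62.5% were intergenic by protein-coding genes alone. The cause of each move was not tested.

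Host genes passing in ΔRBR, 11 in the fit as reported, numbered 18 with DESeq2 at adjusted p of 0.1, 20 with all 6 libraries in one fit, 7 with at least 10 counts in every library, 28 with no filter, and 12 to 21 when 1 library was left out (21 without WT replicate 2). The shares of hosts were then 10.7%, 11.6%, 4.79%, 14.6% and, without WT replicate 2, 12.9%, against 8.73%, 9.67%, 5.005%, 7.45% and 9.86% of all genes. Leaving out 1 library gave 54 to 115 in ATRX KD (54 without ATRX KD replicate 2, 33.3% of hosts against 20.7% of all genes, and 115 without WT replicate 1, 72.8% against 50.1%). The median host log2 fold change in ΔRBR ran from -0.040 (without ΔRBR replicate 1, where it turned) to 0.16 when 1 library was left out. Deviations of same-numbered libraries correlated at -0.370 (ΔRBR and WT) and -0.0267 (ATRX KD and WT), so the numbers do not pair them. With a replicate block 12 hosts passed in ΔRBR (7.10% against 6.56% of all genes) and 87 in ATRX KD (52.7% against 34.6%), and with the numbers crossed, added after seeing the data, 82 hosts and 5547 of all genes passed in ΔRBR (48.5% against 34.1%). Calls of single hosts were lost in 15 values, 4 for Fam13c, 3 for Hjurp, 5 for Matn2 and 3 for Mef2c, with the direction kept. Mef2c was not tested without WT replicate 1, and Mef2c, Ppp1r9a and Samd12 were not tested with at least 10 counts in every library. The share with EZH2 in ΔRBR, 7.83%, was 0.193% without EZH2 ΔRBR replicate 1 and 15.5% without replicate 2. With 2 libraries per group, read depth not stated per library and lists of unequal length, differences between the 2 ΔRBR libraries limit every share in the deletion.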
